A study of Mus musculus with 6 samples.

Results

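Oxidative phosphorylation genes encoded in the nucleus were examined in the mouse prostate under experimental autoimmune prostatitis (EAP), in which autoimmunity inflames the gland. They were taken by symbol: every name beginning with Nduf, Uqcr, Cox4 to Cox8 or Atp5, the genes Sdha to Sdhd, Cyc1 and Cycs, leaving out the assembly factors named Ndufaf. This gave 92 of the 18697 genes in the count table, of which 90 passed the filter on low counts. One group of prostatitis mice had received VUF11207, a synthetic agonist of CXCR7 (also called ACKR3, an atypical receptor for chemokines), by intraperitoneal injection at 5 mg per kg per day for 14 days. The other group of prostatitis mice had received an equal amount of the vehicle DMSO over the same time. Each group held 3 libraries, and the sources used here give no strain, age or genotype. Of the vehicle libraries, 2 carried the replicate numbers 2 and 3, and the other had no number and is called the unnumbered vehicle library. Nothing in the labels says which animal a library came from, so p-values measure only the spread between these samples.

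Oxidative phosphorylation is the last stage of respiration in mitochondria. Complexes I and II pass electrons from NADH and succinate to ubiquinone, complex III passes them on to cytochrome c, complex IV (cytochrome c oxidase) gives them to oxygen, and complex V (ATP synthase) uses the proton gradient built up on the way to make ATP. Most subunits are encoded in the nucleus. The 13 encoded in mitochondrial DNA were looked up by symbol, and 0 were in the count table, so they were not analysed here. Several complex IV subunits come in pairs of isoforms, with Cox6a2, Cox7a1 and Cox8b used mainly in striated muscle (Cox7a1 and Cox8b also in brown fat) and Cox6a1, Cox7a2 and Cox8a used in most tissues. The prostate is a gland of secretory epithelium in a stroma of smooth muscle, and its energy metabolism is known for the accumulation and secretion of citrate.

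Library totals ran from 23915765 to 29311438 counts with VUF11207 and from 20308018 to 33368058 with vehicle. The specimens differed in makeup within both groups. In vehicle replicate 2 the 10 most abundant genes took 67.0% of the counts, against 19.3% to 38.7% in the other 5 libraries, and its TMM scaling factor was 0.425. The prostate marker list had all 8 of its genes detected in every library, with summed levels from 83292 to 193512 CPM (a count relative to its library size, scaled by TMM) with VUF11207 and from 40553 to 78014 CPM with vehicle. Skeletal muscle markers summed to 6921, 1281 and 714 CPM in VUF11207 replicates 1, 2 and 3, and to 902, 455 and 6650 CPM in vehicle libraries unnumbered, 2 and 3. Seminal vesicle markers, from the gland beside the prostate, summed to 268673, 24965 and 30689 CPM with VUF11207 and 5123, 1440820 and 132385 CPM with vehicle in the same order. Of the skeletal muscle sums, the actin gene Acta1 alone made up 1126 CPM in VUF11207 replicate 2 and 776 CPM in the unnumbered vehicle library. In bulk tissue, fewer cells of a type and less RNA per cell cannot be told apart.

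The muscle isoforms are set beside their counterparts here through the stretch from 250 bases before to 50 bases after the gene start, because these 3 genes moved together between libraries while their counterparts did not. The sequences are RefSeq promoters in build GRCm38.p6, which were found for 72 of the 92 members. Capitals mark the motifs found on either strand. Cox8b and its counterpart Cox8a are given first, then Cox7a1 and Cox7a2, then Cox6a1, the counterpart of Cox6a2. No window was found for Cox6a2, so only 2 muscle isoforms were searched.
Cox8b: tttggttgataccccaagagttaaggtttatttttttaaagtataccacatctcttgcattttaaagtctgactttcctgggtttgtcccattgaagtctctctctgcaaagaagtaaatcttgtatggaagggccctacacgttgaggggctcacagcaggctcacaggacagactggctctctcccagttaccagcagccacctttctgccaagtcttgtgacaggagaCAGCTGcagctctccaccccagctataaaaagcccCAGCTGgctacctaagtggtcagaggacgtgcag
Cox8a: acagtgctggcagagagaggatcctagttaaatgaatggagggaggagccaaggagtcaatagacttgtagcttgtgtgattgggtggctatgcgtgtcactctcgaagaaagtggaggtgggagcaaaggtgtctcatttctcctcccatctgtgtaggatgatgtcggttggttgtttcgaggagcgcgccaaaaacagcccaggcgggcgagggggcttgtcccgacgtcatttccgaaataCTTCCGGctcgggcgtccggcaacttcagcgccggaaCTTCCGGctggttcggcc
Cox7a1: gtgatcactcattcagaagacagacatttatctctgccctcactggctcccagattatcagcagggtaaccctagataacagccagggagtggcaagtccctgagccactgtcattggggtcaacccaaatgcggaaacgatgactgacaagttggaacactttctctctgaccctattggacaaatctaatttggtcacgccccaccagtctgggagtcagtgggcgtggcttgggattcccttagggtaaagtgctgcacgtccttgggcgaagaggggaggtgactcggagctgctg
Cox7a2: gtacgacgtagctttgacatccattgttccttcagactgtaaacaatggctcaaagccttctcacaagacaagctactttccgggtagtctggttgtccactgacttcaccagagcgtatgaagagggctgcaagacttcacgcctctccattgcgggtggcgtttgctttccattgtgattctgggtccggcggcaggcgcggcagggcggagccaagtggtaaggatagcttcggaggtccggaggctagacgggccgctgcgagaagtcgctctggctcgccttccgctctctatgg
Cox6a1: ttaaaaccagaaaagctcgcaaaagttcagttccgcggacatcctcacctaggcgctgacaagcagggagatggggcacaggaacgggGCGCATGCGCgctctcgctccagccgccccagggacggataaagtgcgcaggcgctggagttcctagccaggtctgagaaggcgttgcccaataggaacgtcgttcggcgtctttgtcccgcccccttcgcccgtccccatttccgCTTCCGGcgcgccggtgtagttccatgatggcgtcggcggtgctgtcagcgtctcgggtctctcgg
These windows lie at chr7:140900397-140900696 on the minus strand (Cox8b), chr19:7217567-7217866 on the minus strand (Cox8a), chr7:30183921-30184220 on the plus strand (Cox7a1), chr9:79759804-79760103 on the minus strand (Cox7a2) and chr5:115348909-115349208 on the minus strand (Cox6a1). In Cox8b the capitals are copies of CAGCTG, an E-box of the kind bound by muscle regulators such as MyoD, that begin at positions -19 and 17 from the gene start. In Cox8a they are copies of CCGGAAG in its reverse form, an ETS motif of the kind bound by GABPA, that begin at positions -5 and 33. None of the motifs searched was in the windows of Cox7a1 and Cox7a2.

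Motifs of the known regulators of respiratory genes were counted in the same windows of all genes, on both strands. The NRF-1 palindrome, in capitals near the start of the Cox6a1 window, was in 5 of 70 members other than the muscle isoforms (7.14%) and in 1.07% of 27025 genes. For CCGGAAG the shares were 24.3% of these members (17 genes) and 9.93% of all genes, and for AAGATGG, the core of the YY1 motif, 15.7% (11 genes) and 7.28%. The E-box CAGCTG was in 7.14% of the members and 18.3% of all genes, and the core of the MEF2 motif in 1.43% and 4.23%. Cox6a1 held the NRF-1 motif from -162 and the ETS motif from -16. These are matches of letters in a window, and overlaps between motifs were not removed.

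Cox6a2, Cox7a1 and Cox8b varied by far more between libraries than any other member, and this variation ran across both groups. The SD of log2 CPM over the 6 libraries was 4.08 for Cox6a2, 3.43 for Cox8b and 1.62 for Cox7a1, and the next member, Cox4i2, had 0.87. Cox6a2 overlaps an exon of Itgad on the opposite strand. All 3 lie on mouse chromosome 7 in the mm10 annotation (GENCODE release M21): Cox6a2 from 128205435 to 128206387, Cox7a1 from 30184144 to 30186078 and Cox8b from 140898945 to 140900446. Cox6a2 was at 46.5, 0.101 and 4.77 CPM in VUF11207 replicates 1, 2 and 3, and at 0.0370, 0.141 and 48.4 CPM in vehicle libraries unnumbered, 2 and 3. Cox8b, in the same order, had 41.3, 0.604 and 5.75 CPM with VUF11207 and 0.370, 0.141 and 52.6 CPM with vehicle. Both genes were thus high in 1 library of each group, VUF11207 replicate 1 and vehicle replicate 3, intermediate in VUF11207 replicate 3 and near 0 in the other 3 libraries, so the groups overlapped. Cox7a1 followed at 27.0, 1.88 and 4.63 CPM with VUF11207 and 4.03, 4.16 and 30.4 CPM with vehicle, with the same 2 libraries on top but a floor well above 0.

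**Figure D1:**
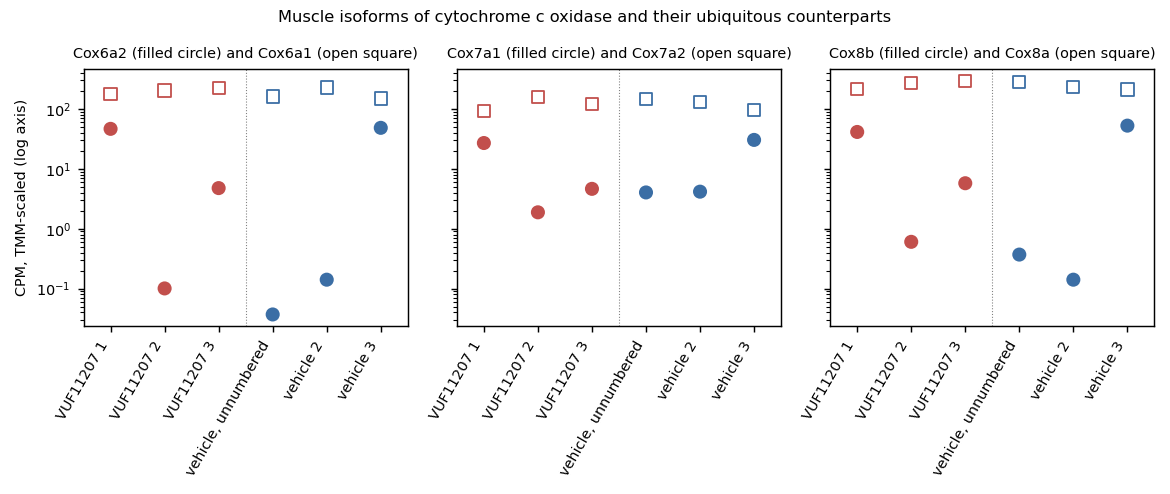
Level of each muscle isoform (filled circles) and its ubiquitous counterpart (open squares) in CPM on a log axis, for the 3 VUF11207 libraries (red) and the 3 vehicle libraries (blue). Cox6a2 and Cox8b span from under 1 to over 40 CPM within each group, while Cox6a1 and Cox8a stay between 149 and 293 CPM in all 6 libraries.

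The 3 muscle isoforms also differed from one another. In raw counts Cox7a1 was at 0.580 and 0.629 times Cox6a2 in VUF11207 replicate 1 and vehicle replicate 3 (0.5 added to each count). In VUF11207 replicate 2, the unnumbered vehicle library and vehicle replicate 2, Cox7a1 had 56, 109 and 59 counts where Cox6a2 had 3, 1 and 2 and Cox8b had 18, 10 and 2. Cox7a1 transcripts were therefore present at a low level in libraries with almost none of the other muscle isoforms.

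As a share of the counts of the pair, Cox6a2 made up 20.9%, 0.0493% and 2.09% of Cox6a2 and Cox6a1 together in VUF11207 replicates 1, 2 and 3, and 0.0229%, 0.0619% and 24.5% in vehicle libraries unnumbered, 2 and 3. Cox7a1 made up 22.4%, 1.19% and 3.71% of its pair with VUF11207 and 2.70%, 3.09% and 24.1% with vehicle. For Cox8b the shares were 15.96%, 0.225% and 1.93% with VUF11207 and 0.132%, 0.0610% and 20.0% with vehicle. The Wilson 95% intervals of these shares had half-widths of at most 1.37 percentage points and covered counting error only. In no library did the muscle form exceed its counterpart.

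None of the muscle isoforms passed the test between treatments, and the data bound their fold changes only loosely. The log2 fold changes (VUF11207 over vehicle) were 0.075 ± 2.31 (SE) for Cox6a2, -0.21 ± 1.17 for Cox7a1 and -0.16 ± 2.05 for Cox8b, each with an adjusted p of 0.9999 in edgeR's quasi-likelihood test. The 95% interval of Cox6a2 ran from -5.47 to 5.62 on the log2 scale. Single libraries set these values: without vehicle replicate 3 they were 7.73 for Cox6a2, 1.45 for Cox7a1 and 5.85 for Cox8b, and without VUF11207 replicate 1 they were -2.72, -1.97 and -2.47. For the log2 ratio of each muscle form to its counterpart, which does not depend on the scaling, VUF11207 minus vehicle was 1.74 for Cox6a2 over Cox6a1 (-6.08 ± 4.44 with VUF11207 and -7.82 ± 5.40 with vehicle, SD, n = 3 each, exact permutation p = 0.8). It was -0.36 for Cox7a1 over Cox7a2 (exact permutation p = 0.9) and 1.68 for Cox8b over Cox8a (exact permutation p = 0.6). These tests were two-sided, the 3 p-values adjusted to 0.9 each, and 3 libraries against 3 cannot give a p under 0.1.

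Most markers of skeletal muscle moved with these isoforms. Of the 15 markers listed, 14 were tested. Their log2 CPM, less each gene's average over the 6 libraries, had a mean of 4.11, -2.49 and 0.38 with VUF11207. With vehicle it was -3.95, -2.09 and 4.03 in libraries unnumbered, 2 and 3. Myh4, a myosin heavy chain of fast fibres, was at 685, 1.01 and 41.7 CPM in VUF11207 replicates 1, 2 and 3 and at 0.0740, 3.31 and 665 CPM in vehicle libraries unnumbered, 2 and 3. Ckm, the muscle creatine kinase, was at 960, 45.1 and 76.0 CPM with VUF11207 and 36.0, 29.4 and 1016 CPM with vehicle. Acta1, which encodes skeletal muscle actin, did not follow this order, with 1643, 1126 and 306 CPM with VUF11207 and 776, 363 and 1203 CPM with vehicle. Tnnc2, another marker of the list, followed it only in part, with 502, 96.3 and 60.7 CPM with VUF11207 and 82.6, 31.3 and 542 CPM with vehicle. Myh2 had 0 counts in the unnumbered vehicle library, and Myh7, the myosin of slow fibres and heart, had 0 in VUF11207 replicate 1 and vehicle replicate 2.

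Markers of other tissues that use these isoforms, and of white fat, were at lower levels. The 4 brown fat markers summed to 4.94, 3.66 and 1.89 CPM with VUF11207 and 3.92, 1.97 and 4.10 CPM with vehicle. Most of this was Ppara, a lipid-sensing receptor that other tissues also express, at 4.16, 3.59 and 1.66 CPM with VUF11207 and 3.55, 1.83 and 3.85 CPM with vehicle. Cidea, a lipid droplet protein, had 23, 1 and 7 counts with VUF11207 and 10, 2 and 8 counts with vehicle, while Ucp1, the uncoupling protein of brown fat, had 1 count over the 6 libraries and Elovl3 none. The 4 cardiac markers summed to 1.22, 3.09 and 2.13 CPM with VUF11207 and 9.95, 0.564 and 1.42 CPM with vehicle, and Myh6, a cardiac myosin, reached 2.85 CPM in the unnumbered vehicle library and at most 0.0336 CPM elsewhere.

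The sum of the white fat markers was also highest in VUF11207 replicates 1 and 3 and vehicle replicate 3, the libraries in which Cox6a2 and Cox8b were highest. The 5 markers summed to 24.2, 6.88 and 13.8 CPM with VUF11207 and 6.14, 2.96 and 14.3 CPM with vehicle. Fabp4, a fatty acid carrier of fat cells that other cells also use, made up most of the sum, at 21.7, 5.54 and 12.04 CPM with VUF11207 and 5.00, 2.47 and 13.0 CPM with vehicle. The single markers did not all follow this order. Adipoq, which encodes adiponectin, was at 1.49, 1.31 and 1.22 CPM with VUF11207 and 0, 0.282 and 0.840 CPM with vehicle. Plin1 and Cidec were highest in the unnumbered vehicle library, at 0.407 and 0.740 CPM. Lep, which encodes leptin, had 0 counts in all vehicle libraries and in VUF11207 replicate 2. The part of skeletal muscle and of fat in the isoform levels was not tested.

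The counterparts were even by comparison. Cox6a1 was at 177, 204 and 224 CPM in VUF11207 replicates 1, 2 and 3 and at 162, 227 and 149 CPM in vehicle libraries unnumbered, 2 and 3, a log2 fold change of 0.17 ± 0.25 (SE). Cox7a2 had 93.4, 156 and 120 CPM with VUF11207 and 146, 130 and 95.6 CPM with vehicle, and Cox8a had 217, 268 and 293 CPM with VUF11207 and 281, 231 and 210 CPM with vehicle. Their lowest values lay in VUF11207 replicate 1 or vehicle replicate 3, the libraries in which the muscle forms were highest.

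No oxidative phosphorylation gene passed the test between VUF11207 and vehicle, and for most members other than the muscle isoforms the intervals of the fold change were narrow. Of the 90 members tested, 0 passed a Benjamini-Hochberg adjusted p of 0.05 in edgeR's quasi-likelihood test, as did 0% of the 13753 genes tested in either direction. At an unadjusted p under 0.05 there were 0 members, against 1.43% of all genes tested (196 genes), and DESeq2 and limma voom called 0 members too, while DESeq2 called 4 of all genes. For 70 of the 87 members other than the muscle isoforms (80.5%), the 95% interval of the log2 fold change lay within -1 and 1, so that a change of 2-fold or more was outside it, and this held for 43.3% of all genes tested. These 70 were among the 80 members with a mean of at least 10 CPM. The median size of the log2 fold change, sign ignored, was 0.11 over the 87 members and 0.22 over all genes tested. Of the 13753 genes tested, 8102 had a mean of at least 10 CPM. These comparisons with all genes were not matched for abundance, so they do not show that narrow intervals are particular to the members. Of the 87, 38 had a positive and 49 a negative value, with a median of -0.024, beside 44.7% positive and a median of -0.041 over all genes.

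The groups did not overlap for 4 members, each higher with VUF11207, which is 4.44% of the 90 tested beside 5.57% of all genes tested (3.05% higher and 2.52% lower). Cox5a, a subunit of complex IV, was at 102, 97.3 and 111 CPM in the VUF11207 libraries and 68.8, 85.8 and 84.7 CPM in the vehicle libraries, a log2 fold change of 0.38 ± 0.19 with a 95% interval from -0.067 to 0.82 (SE, edgeR unadjusted p = 0.0844). Ndufa12, an accessory subunit of complex I, had 56.9, 60.5 and 65.4 CPM with VUF11207 and 30.4, 55.4 and 45.3 CPM with vehicle, for a log2 fold change of 0.48 ± 0.25 (SE). Ndufb3, another accessory subunit, stood at 76.0, 86.6 and 87.7 CPM with VUF11207 and 73.4, 70.1 and 66.3 CPM with vehicle. Sdhc, a membrane anchor of complex II, had 98.3, 98.3 and 100.4 CPM with VUF11207 and 89.6, 92.6 and 97.5 CPM with vehicle, so the groups were apart by less than the spread within vehicle. The adjusted p was 0.9999 for each of these genes.

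**Figure D2:**
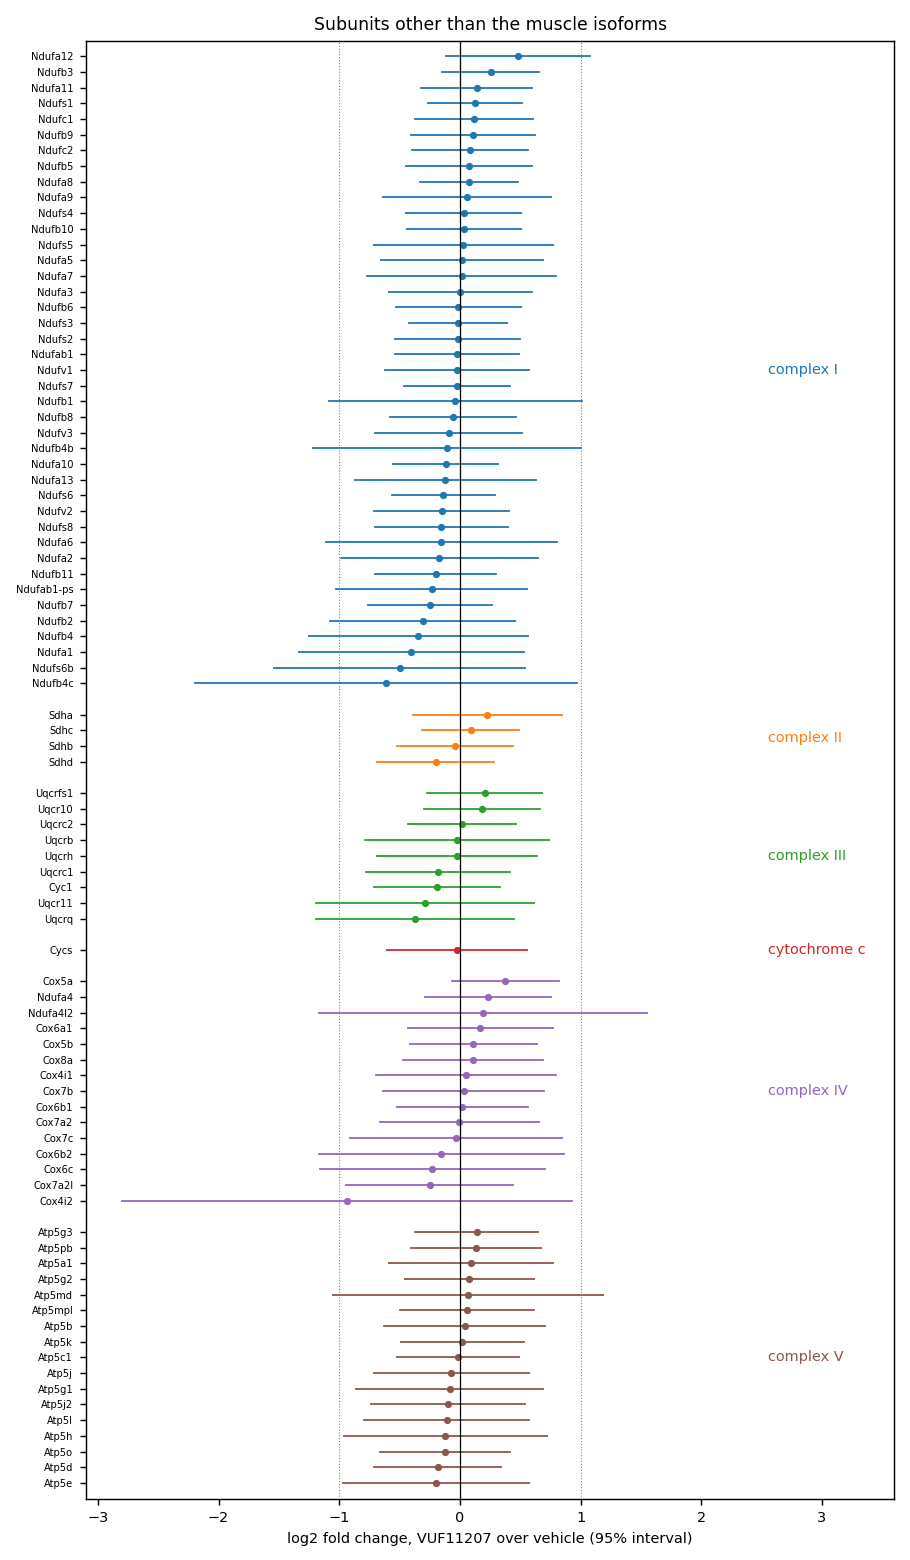
Log2 fold change of VUF11207 over vehicle for the 87 tested members other than the muscle isoforms, grouped by complex, with 95% intervals from edgeR. Every interval includes 0, and 70 of the 87 lie between the dotted lines at -1 and 1.

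Complex I is the largest of the complexes, and its 41 members had a median log2 fold change of -0.028, with 16 positive and 25 negative. Their summed level was 3257, 3969 and 3625 CPM in VUF11207 replicates 1, 2 and 3, and 4287, 3994 and 3039 CPM in vehicle libraries unnumbered, 2 and 3. The lowest and the highest sum both belonged to vehicle libraries, so the VUF11207 libraries lay inside the range of vehicle. Ndufa7, the accessory subunit with the highest mean, was at 142, 231 and 222 CPM with VUF11207 and 270, 174 and 146 CPM with vehicle. Ndufb11, which is X-linked, stood at 159, 169 and 168 CPM with VUF11207 and 205, 207 and 159 CPM with vehicle, for a log2 fold change of -0.20 ± 0.21 (SE). The largest negative values were those of Ndufb4c (-0.61 ± 0.66) and Ndufs6b (-0.50 ± 0.44, SE), which are named as further copies of Ndufb4 and Ndufs6. Both are annotated as processed pseudogenes and were under 5 CPM in every library, and reads shared with the parent genes make their values uncertain. The 41 members include 4 such copies, the others being Ndufb4b and the processed pseudogene Ndufab1-ps. Of these 4, 0 were positive, with a median of -0.37, so the counts above describe not only subunit genes.

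Complex II, succinate dehydrogenase, also works in the citric acid cycle, and it was the most even of the 5 complexes. Its 4 genes summed to 412, 369 and 388 CPM in the VUF11207 libraries and to 365, 395 and 364 CPM in the vehicle libraries, and their median log2 fold change was 0.022. Sdha, the flavoprotein that oxidises succinate, had 153, 109 and 142 CPM with VUF11207 and 84.4, 132 and 129 CPM with vehicle, for a log2 fold change of 0.23 ± 0.26 (SE). Sdhb, the iron-sulfur subunit, averaged 108 CPM ± 2.51 and 112 CPM ± 19.1 (VUF11207 and vehicle, SD, n = 3 each). Sdhd, the other membrane anchor, averaged 47.4 CPM ± 6.91 with VUF11207 and 54.5 CPM ± 7.68 with vehicle. Sdhc varied least of all members at 10 CPM or more, its highest library being 1.12 times its lowest.

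In complex III, 3 of 9 log2 fold changes were positive, and their median was -0.027. The sums were 1165, 1436 and 1271 CPM with VUF11207 and 1582, 1415 and 1107 CPM with vehicle. Uqcrfs1, the Rieske iron-sulfur protein, was at 149, 164 and 187 CPM with VUF11207 and 142, 153 and 138 CPM with vehicle, for a log2 fold change of 0.21 ± 0.20 (SE). Cyc1, which encodes cytochrome c1, averaged 82.7 CPM ± 14.8 and 94.3 CPM ± 14.6 (VUF11207 and vehicle, SD, n = 3 each). The small subunit Uqcrq had 124, 195 and 156 CPM with VUF11207 and 243, 249 and 122 CPM with vehicle, for a log2 fold change of -0.37 ± 0.34 (SE), so vehicle alone held both its lowest and its highest value. Among the other small subunits, Uqcrh and Uqcr10 had log2 fold changes of -0.027 ± 0.28 and 0.18 ± 0.20 (SE). Cycs, the electron carrier cytochrome c that also serves in apoptosis, averaged 63.9 CPM ± 6.13 with VUF11207 and 65.0 CPM ± 18.9 with vehicle.

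In complex IV, 9 of 15 tested members were positive and the median was 0.030, leaving the muscle isoforms aside and counting Ndufa4, now known as a complex IV subunit, and its relative Ndufa4l2. The members summed to 2202, 3011 and 2701 CPM in the VUF11207 libraries and 3148, 2514 and 2060 CPM in the vehicle libraries. Cox4i1, the regulatory subunit used in most tissues, was the highest member per length of mRNA at a mean of 785 CPM per kilobase, and had 503, 685 and 646 CPM with VUF11207 and 751, 557 and 460 CPM with vehicle. Cox4i2, its isoform of lung and low oxygen, was at 0.913, 0.738 and 0.440 CPM with VUF11207 and 2.63, 0.916 and 0.452 CPM with vehicle. Its log2 fold change of -0.93 ± 0.78 (SE) came from the unnumbered vehicle library, without which it was 0.052. Cox6c, at 198, 325 and 230 CPM with VUF11207 and 450, 241 and 191 CPM with vehicle, was also highest in that library.

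Among the remaining complex IV members, Ndufa4 averaged 230 CPM ± 34.7 with VUF11207 and 196 CPM ± 10.002 with vehicle (SD, n = 3 each). Cox7a2l, a factor of respiratory supercomplexes, had 118, 145 and 146 CPM with VUF11207 and 193, 190 and 105 CPM with vehicle. Ndufa4l2, a gene induced by low oxygen, stayed between 0.643 and 1.48 CPM in all libraries. Isoforms known from testis were scarce: Cox6b2 was between 1.49 and 2.20 CPM, Cox8c had 0, 1 and 1 counts with VUF11207 and 0, 3 and 6 counts with vehicle, and Cox7b2 had 0 counts in every library. Cox8c and Cox7b2 are the 2 members that fell under the filter.

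Complex V had 8 of 17 members positive and a median of -0.016. Its sums were 3310, 3508 and 3331 CPM with VUF11207 and 3533, 3724 and 2966 CPM with vehicle, and 16 of its 17 genes had intervals within 2-fold. Atp5b, the catalytic beta subunit, had 624, 483 and 501 CPM with VUF11207 and 458, 632 and 477 CPM with vehicle. Atp5a1, the alpha subunit, had 504, 389 and 451 CPM with VUF11207 and 315, 500 and 444 CPM with vehicle, also with its lowest value in the unnumbered vehicle library. Atp5e, the small epsilon subunit, ran the other way at 140, 229 and 162 CPM with VUF11207 and 262, 211 and 137 CPM with vehicle. Atp5d, the delta subunit, and Atp5g3, 1 of 3 genes for the c-ring, had log2 fold changes of -0.19 ± 0.22 and 0.14 ± 0.21 (SE).

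**Figure D3:**
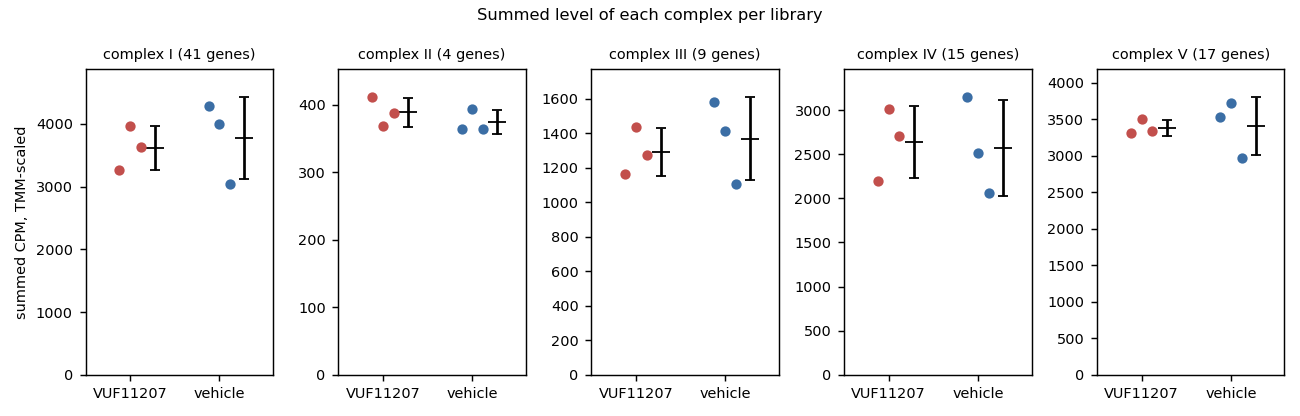
Summed CPM of the tested members of each complex, leaving out the muscle isoforms, in the 3 VUF11207 libraries (red) and the 3 vehicle libraries (blue), with the group mean and SD in black. The libraries of each group overlap those of the other in all 5 complexes.

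These medians moved when libraries or the scaling changed, by amounts small beside the range of single genes. With 1 library left out, the median log2 fold change ran from -0.128 to 0.079 over the 87 members, and it ran most widely in complex III, from -0.16 to 0.16. When only library totals set the scale, the median of all genes was 0.14 and that of the 87 members 0.18, so the members moved with all genes.

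Differences between libraries within a group were larger than those between treatments, and they split the medians of subunit sets by role. The sets of subunits by role were chosen after their values were seen. Each value that follows is the median over a set of each gene's deviation, its log2 CPM in a library less its average over all 6. For the 7 core subunits of complex I encoded in the nucleus, which carry the flavin and iron-sulfur centres and the quinone site, it was 0.13, -0.011 and -0.082 in VUF11207 replicates 1, 2 and 3 and -0.024, 0.24 and -0.083 in vehicle libraries unnumbered, 2 and 3. For the 30 accessory subunits of complex I it was -0.19, 0.16 and 0.0039 with VUF11207 and 0.22, 0.067 and -0.27 with vehicle. By median, core subunits were thus highest in vehicle replicate 2 and VUF11207 replicate 1, and accessory subunits in the unnumbered vehicle library and VUF11207 replicate 2. Single genes departed from this. The core subunits Ndufv2 and Ndufs8 were highest in the unnumbered vehicle library, at 0.28 and 0.32, and lowest in vehicle replicate 3, at -0.32 and -0.39.

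By median, complexes III and V showed a similar split. The 5 small subunits of complex III were at -0.32, 0.24 and -0.060 with VUF11207 and 0.48, -0.068 and -0.29 with vehicle, and the 4 larger ones (cytochrome c1, the Rieske protein and both core proteins) at 0.12, -0.11 and -0.11 with VUF11207 and -0.050, 0.22 and -0.12 with vehicle. In complex V, the 9 stalk and membrane subunits other than the c-ring were at -0.26, 0.22 and -0.047 with VUF11207 and 0.30, -0.096 and -0.27 with vehicle. The 5 subunits of the F1 head were at 0.062, -0.12 and -0.12 with VUF11207 and -0.0040, 0.22 and -0.14 with vehicle. Single genes departed from it in both complexes. Among the 4 larger subunits of complex III, the Rieske protein gene Uqcrfs1 was an exception, highest in VUF11207 replicate 3 at 0.27 and at -0.011 in vehicle replicate 2. The small subunit Uqcr10 was at -0.033 in the unnumbered vehicle library. In the F1 head, Atp5e and Atp5c1 were highest in the unnumbered vehicle library, at 0.50 and 0.12. Among the stalk and membrane subunits, Atp5pb and Atp5o were highest in vehicle replicate 2, at 251 and 207 CPM. Genes of both kinds work in the same enzymes, yet the medians of their transcripts did not rank the libraries alike.

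**Figure D4:**
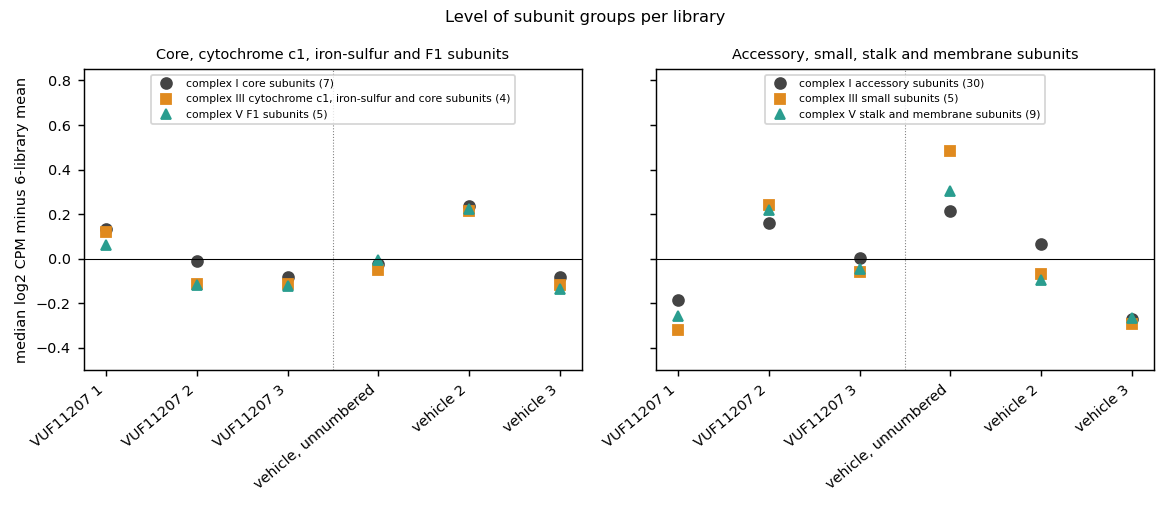
Median deviation of log2 CPM from the mean of the 6 libraries, per library, for the core, cytochrome c1, iron-sulfur and F1 subunits (left) and the accessory, small, stalk and membrane subunits (right) of complexes I, III and V. On the left vehicle replicate 2 is highest, and on the right the unnumbered vehicle library is highest and VUF11207 replicate 1 and vehicle replicate 3 are lowest.

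Among the genes that varied most, chosen after their values were seen, Ndufa1 stood apart. This small X-linked subunit of complex I was at 121, 155 and 134 CPM with VUF11207 and 157, 285 and 100.4 CPM with vehicle, 2.84 times higher in its highest library than in its lowest, the widest range among the 80 members at 10 CPM or more. Atp5md, a small membrane subunit of ATP synthase, had 60.8, 155 and 99.6 CPM with VUF11207 and 161, 76.8 and 63.2 CPM with vehicle. Uqcr11, another small subunit of complex III, had 118, 187 and 156 CPM with VUF11207 and 290, 155 and 120 CPM with vehicle. The median range was 1.53 times over the 80 members. The SD of log2 CPM over the 6 libraries had a median of 0.24 for these 80, against 0.32 for the 8102 tested genes with at least 10 CPM.

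The split by role ran in part along the length of the mRNA. Annotated lengths of the principal transcript were found for 79 of the 87 members, with a median of 865 bases, against 2996 bases over all genes tested. Where several transcripts ranked alike as principal, the longest was taken, which may not be the form expressed here. The 28 members at 10 CPM or more with an mRNA under 700 bases, a limit chosen after the values were seen, had median deviations of -0.28, 0.25 and -0.021 in the VUF11207 libraries and 0.27, -0.042 and -0.30 in the vehicle libraries. In the 48 longer members the values were -0.0085, 0.036 and -0.035 with VUF11207 and 0.018, 0.14 and -0.17 with vehicle. Other genes with such short mRNAs, 150 in number, gave -0.32, 0.27 and 0.043 with VUF11207 and 0.37, -0.018 and -0.35 with vehicle. Without ribosomal protein genes, the 114 left gave -0.25, 0.22 and 0.075 with VUF11207 and 0.18, -0.015 and -0.29 with vehicle. The pattern of the short members was therefore shared by short transcripts outside oxidative phosphorylation.

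Some accessory and small subunits with longer annotated mRNAs, chosen after their values were seen, had the pattern of the short members in part. They were low in VUF11207 replicate 1 and vehicle replicate 3 and high in the unnumbered vehicle library. Ndufb2, an accessory subunit of complex I with 4371 bases, deviated by -0.43, 0.18 and -0.15 with VUF11207 and 0.63, 0.23 and -0.46 with vehicle. Uqcrq, with 1521 bases, deviated by -0.49, 0.16 and -0.16 with VUF11207 and 0.48, 0.51 and -0.51 with vehicle. Unlike the short members, it was highest in vehicle replicate 2, and Ndufb2 was higher there than in VUF11207 replicate 2. Like Ndufb2, Ndufb4, with 971 bases, and Ndufa13, with 1251 bases, were highest in the unnumbered vehicle library, at 0.83 and 0.55. They were low in VUF11207 replicate 1, at -0.50 and -0.31. Other long accessory subunits, also chosen after their values were seen, did not have this pattern. Ndufa9, with 1445 bases, deviated by 0.30, -0.24 and 0.089 with VUF11207 and -0.57, 0.42 and 0.0074 with vehicle. Ndufa10, with 2020 bases, deviated by 0.10, -0.12 and -0.16 with VUF11207 and -0.045, 0.13 and 0.10 with vehicle. The lengths of the transcripts expressed here were not measured, so a long annotated length may not be that of the RNA counted. The parts of role and of length were not tested.

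**Figure D5:**
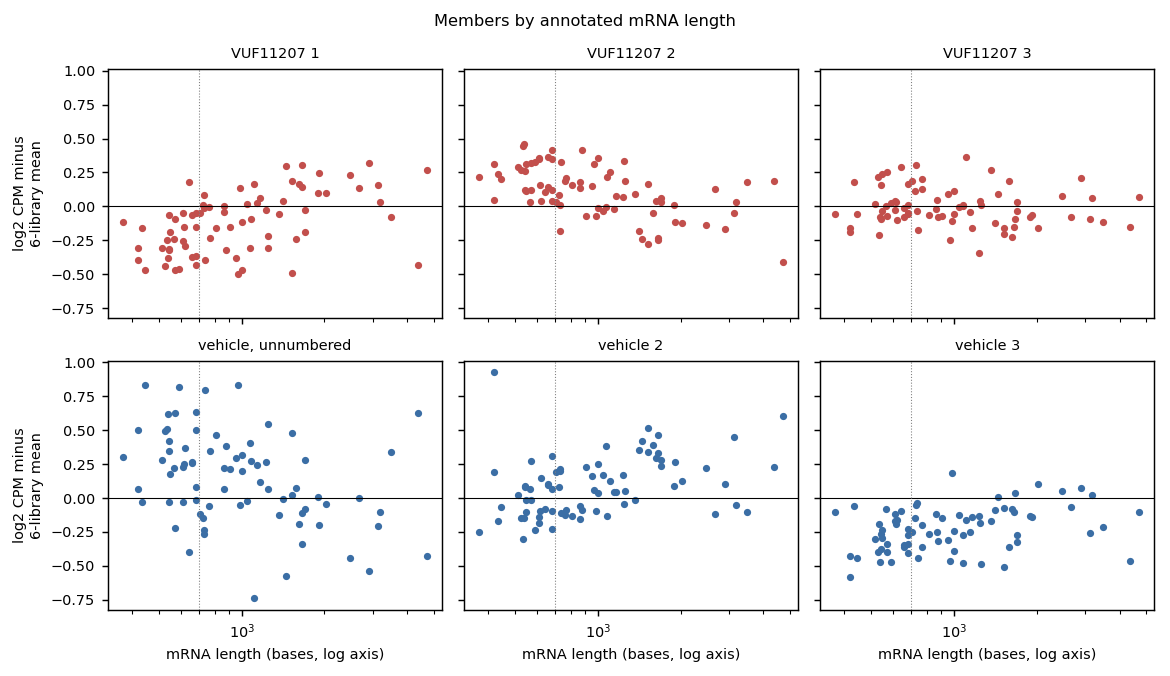
Deviation of log2 CPM from the mean of the 6 libraries against annotated mRNA length (log axis) for the 76 members at 10 CPM or more with a length, 1 panel per library, with VUF11207 libraries in the upper row and vehicle libraries in the lower row. Points left of the dotted line at 700 bases sit mostly below 0 in VUF11207 replicate 1 and vehicle replicate 3 and mostly above 0 in VUF11207 replicate 2 and the unnumbered vehicle library.

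Marker lists of other cell types also differed between libraries, not all in the same order. The 6 smooth muscle markers summed to 7782, 17142 and 3685 CPM in VUF11207 replicates 1, 2 and 3 and to 13517, 4387 and 4099 CPM in vehicle libraries unnumbered, 2 and 3. The 5 T cell markers measured summed to 2.94, 18.1 and 5.04 CPM with VUF11207 and 15.3, 4.86 and 5.75 CPM with vehicle. Both lists were highest in VUF11207 replicate 2 and the unnumbered vehicle library, as were the short members, but smooth muscle markers were lowest in VUF11207 replicate 3 and higher in VUF11207 replicate 1 than in vehicle replicates 2 and 3, unlike the short members. Macrophage markers summed to 55.1, 109 and 52.4 CPM with VUF11207 and 136, 69.3 and 89.4 CPM with vehicle. Red blood cell markers summed to 109, 499 and 81.1 CPM with VUF11207 and 1844, 187 and 721 CPM with vehicle, second highest in vehicle replicate 3, where the short members were lowest. No gene measured in these 4 lists was at 0 in any library. The part of cell makeup, transcript length and RNA quality in the split of the subunits was not tested.

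Genes that build, feed or regulate the chain did not pass the test either. Of the 14 assembly factors of complex I, 8 were positive with a median log2 fold change of 0.033, and of 28 tested assembly factors of complexes II to V, 13 were positive with a median of -0.0053. Citric acid cycle genes had 11 of 18 positive (median 0.048), fatty acid oxidation genes 11 of 17 (median 0.13) and glycolysis genes 12 of 18 (median 0.18). In each of these lists 0 genes passed in either direction and 0 had an unadjusted edgeR p under 0.05. Carriers of ADP, ATP and phosphate, uncoupling proteins and creatine kinases had 7 of 11 tested genes positive (median 0.028), and 0 passed.

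Unlike the subunit genes without the muscle isoforms, the glycolysis list summed to its highest levels in the libraries rich in skeletal muscle markers. It had 4422, 2214 and 2121 CPM with VUF11207 and 1812, 2103 and 4470 CPM with vehicle. No gene was left out of this list as a muscle form. Aldoa alone had 1728, 600 and 589 CPM with VUF11207 and 546, 575 and 2008 CPM with vehicle. Eno3 had 374, 40.4 and 49.5 CPM with VUF11207 and 37.9, 41.1 and 361 CPM with vehicle. Not all genes followed, as Eno1 had 75.4, 93.6 and 72.3 CPM with VUF11207 and 58.4, 69.3 and 68.7 CPM with vehicle. The 87 subunit genes summed to 10416, 12354 and 11377 CPM with VUF11207 and to 12969, 12128 and 9589 CPM with vehicle. Their lowest sum in each group belonged to VUF11207 replicate 1 and vehicle replicate 3, the libraries in which the glycolysis sum and the muscle isoforms were highest. As a share of raw counts, all 92 members took 1.06%, 1.54% and 1.30% with VUF11207 and 1.73%, 0.516% and 1.19% with vehicle.

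Of 22 tested regulators of mitochondrial biogenesis, 8 were positive, the median was -0.064 and 0 passed. Ppargc1a, the coactivator PGC-1alpha, was low at 3.35, 1.91 and 2.84 CPM with VUF11207 and 0.888, 0.845 and 3.91 CPM with vehicle, for a log2 fold change of 0.51 ± 0.71 (SE) that ran from 0.17 to 1.64 with 1 library left out. Its relative Ppargc1b stayed between 0.710 and 3.23 CPM. Esrra, the nuclear receptor ERR-alpha that works with these coactivators, had 35.8, 49.8 and 48.4 CPM with VUF11207 and 95.7, 40.6 and 39.0 CPM with vehicle. Nrf1 and Gabpa, which encode the factors of the NRF-1 and ETS motifs above, had log2 fold changes of -0.44 ± 0.29 and -0.27 ± 0.18 (SE). Tfam, the packaging factor of mitochondrial DNA, was at 0.18 ± 0.18. Nrip1, a corepressor of nuclear receptors, alone in the list had an unadjusted p under 0.05 in edgeR's quasi-likelihood test (0.0429); its log2 fold change was 0.57 ± 0.23 (SE), and its adjusted p was 0.9999.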

How the data were processed

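RNA was sequenced in 6 libraries of mouse prostate. The submitters' processing notes name the tools HTSeq, HISAT2 and fastp and the genome build mm10, with no versions. What the authors deposited are raw whole-number counts of reads for each gene symbol. The sources used here state neither the annotation nor the strand setting, nor how reads with several matches were counted, so copies of members, and the 21 members whose exons overlap an opposite-strand gene of the table, are uncertain. Of the 6 libraries, 5 had a file of their own, identical to the table. The sixth column carried a vehicle name that matched no sample's own file and entered that group without a number.

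Counts were scaled by TMM, filtered with filterByExpr (13753 genes) and compared by edgeR 4.0.16's quasi-likelihood test with robust dispersions, two-sided, with Benjamini-Hochberg adjustment over all genes tested. Standard errors are the absolute log2 fold change divided by the root of F. Library totals were 20308018 to 33368058 counts, and the biological coefficient of variation was 51.4%. Log2 CPM used a prior count of 2. Positions and lengths came from GENCODE M21, which held 87 of the 92 members under 1 gene. The test was checked on simulated counts, but its power at the spread of these data is not given here. Alternatives used DESeq2 1.42.0, limma 3.58.1 voom, other scalings and filters, a replicate block and fewer libraries. R 4.3.3 and Python 3.11.15 were used.

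Members and lists were chosen with earlier results of these data known. The genes named were the muscle isoforms and counterparts, the 3 smallest p, 2 highest means and extreme fold changes of each complex, and a set of isoforms and regulators. Ndufa1, Atp5md, Uqcr11, Myh2, Myh7, Myh6, Ucp1, Elovl3, Cidea, Ppara, Fabp4, Adipoq, Lep, Ndufb2, Ndufb4, Ndufa13 and Nrip1 were chosen after their values were seen. So were Ndufa9, Ndufa10, Ndufv2, Ndufs8, Ndufb4b, Ndufab1-ps, Tnnc2, Plin1, Cidec, Aldoa, Eno3, Eno1, Atp5c1, Atp5pb and Atp5o.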

Additional observations from a re-analysis of the deposited data

How the results depend on the processing

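Under every other setting of the fit and with each library left out, 0 members passed an adjusted p of 0.05. Over all genes, DESeq2 called 4 and scaling by library totals alone called 3. With library totals alone the median log2 fold change was 0.18 over the 87 members, 0.20 in complex II and 0.17 in complex V, and signs turned to 0.070 for Atp5d, 0.0086 for Atp5e, -0.18 for Cox6a2, 0.22 for Cox7a2, 0.050 for Cyc1, 0.29 for Cycs, 0.015 for Ndufb11, 0.14 for Sdhb and 0.15 for Uqcrh. limma voom turned signs to -0.016 for Atp5b, 0.0014 for Cox6c, 0.015 for Cox7a2, 0.49 for Cox8b, 0.036 for Sdhb and 0.034 for Uqcrh. Without both libraries rich in seminal vesicle markers they turned to -3.30 for Cox6a2, 0.22 for Cox7a2, 0.18 for Cycs, -0.0025 for Ppargc1a and 0.11 for Uqcrh, without both rich in skeletal muscle markers to -0.11 for Atp5b, 0.044 for Cox7a2, 3.61 for Cox8b and 0.014 for Uqcrh, where Cox6a2 fell under the filter, and without the 50 most abundant genes to 0.028 for Cox7a2, 0.0035 for Cycs and 0.0076 for Uqcrh. Cox7a2 was also 0.010 with no filter, 0.0019 with at least 10 counts in every library and 0.0094 with upper quartile scaling. The cause of these turns was not tested.

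The labels' replicate numbers are shared for 2 and 3, and the deviations of same-numbered libraries had a correlation of 0.063, a single value for both pairs. The column names carry the numbers 2, 5 and 6 in both groups, with correlations of -0.59, -0.33 and 0.053. No source says that a number marks a shared animal or batch, so pairing was not established. With the replicate number as a block, on 4 libraries, 0 genes passed, 3 of 90 members (3.33%) had an unadjusted p under 0.05 beside 6.06% of all genes, and the median was 0.28 in complex III, 0.31 in complex IV and 0.15 in complex V. The block turned signs to -0.16 for Atp5a1, -0.15 for Atp5b, 0.19 for Atp5e, -2.83 for Cox6a2, 0.36 for Cox6c, 0.31 for Cox7a2, 0.058 for Cox7a2l, 0.31 for Esrra, -0.054 for Sdha, 0.081 for Sdhb, 0.31 for Uqcrh and 0.013 for Uqcrq. A replicate block by column number, chosen after seeing the data, gave 0 members and 1.32% of all genes at an unadjusted p under 0.05, and turned signs to 1.86 for Cox8b and 0.0079 for Cycs.

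Leaving out 1 library at a time gave 0 to 2 members at an unadjusted p under 0.05 (2.22% of members beside 4.85% of all genes without vehicle replicate 3), a median of -0.16 to 0.16 in complex III and -0.17 to 0.048 in complex V, and log2 fold changes of -2.72 to 7.73 for Cox6a2, -1.97 to 1.45 for Cox7a1, -2.47 to 5.85 for Cox8b, -0.074 to 0.25 for Atp5a1, -0.058 to 0.21 for Atp5b, -0.42 to 0.025 for Atp5e, -0.091 to 0.27 for Cox4i1, -1.34 to 0.052 for Cox4i2, -0.46 to 0.22 for Cox6c, -0.21 to 0.19 for Cox7a2, -0.15 to 0.25 for Cycs, -0.60 to 0.17 for Esrra, -0.12 to 0.45 for Ndufa4l2, -0.16 to 0.32 for Ndufa7, -0.60 to -0.12 for Nrf1, 0.17 to 1.64 for Ppargc1a, 0.048 to 0.36 for Sdha, -0.16 to 0.081 for Sdhb and -0.20 to 0.16 for Uqcrh. The log2 ratio difference ran from -0.33 to 4.84 for Cox6a2 over Cox6a1, from -1.60 to 0.78 for Cox7a1 over Cox7a2 and from 0.074 to 4.32 for Cox8b over Cox8a.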
